A study of Mus musculus with 4 samples.

Results

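Gene expression was compared between mouse embryonic fibroblasts infected with G3SKM, which is GATA3, SOX2, KLF4 and c-MYC together, and fibroblasts infected with an empty vector. Of 27597 genes in the deposited tables, 10298 reached 1 RPKM or more in at least 1 of these groups and form the comparison. RPKM is the read count per kilobase of gene at a fixed library size, and a gene without reads was taken as 0. The fibroblasts were of strain OGXICR, taken from embryos of age D13.5, from skin whose epidermis had been peeled away, and were grown in medium with 10% serum. All groups, empty vector included, were infected with a doxycycline-inducible lentiviral system. The time between infection and harvest is not given in the sources used here. SKM (SOX2, KLF4 and c-MYC) and OSKM (the same with OCT4) are given beside G3SKM as context, and their ratios share the same empty vector library. Where 4 values follow a gene's name, they stand in the order empty vector, G3SKM, OSKM and SKM. Each group has 1 value per gene, which stands for 2 replicates already combined. No spread between replicates can therefore be set against any difference below, and no test was made.

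SOX2, KLF4 and c-MYC are transcription factors of the classical set that, with OCT4, turns fibroblasts into pluripotent stem cells. SOX2 is an HMG-box factor of stem cells and of neural and epithelial progenitors, KLF4 is a zinc finger factor that also builds the skin barrier, and c-MYC drives growth and ribosome synthesis. GATA3 is a zinc finger factor of trophoblast, T cells and several epithelia, the epidermis among them, and the study belongs to work on whether lineage factors of this kind can stand in for OCT4. In fibroblasts given such factors, an early step known from other work is the loss of mesenchymal genes and the gain of epithelial genes.

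Library depth, worked out from the steps between low values, came to 111 mega-reads for empty vector and 102 for G3SKM, with 74.7 for OSKM and 54.0 for SKM. Of the genes compared, 8984 reached 1 RPKM in empty vector and 9741 in G3SKM, 8427 of them in both. A further 1314 reached that level in G3SKM alone and 557 in empty vector alone. The deposited RPKM divide reads by the whole gene span, introns included, so genes with long introns have low values, and levels are compared below between groups and not between genes. Across 9544 genes with a GC value, Spearman's rho between the log2 ratio of G3SKM over empty vector and transcript GC was 0.00476, which is across genes and is no test.

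Among the genes of the delivered factors, Sox2 stood at 0.260 RPKM in empty vector, 70.7 in G3SKM, 110.5 in OSKM and 187 in SKM. On the scale of RPKM + 1 its log2 ratio, 5.83, was the largest in the comparison, although with a pseudocount of 0.1 RPKM Krt16 stood as high (7.62 for both). As a plain ratio, by which some genes nearly without reads in empty vector rank above it, Sox2 was 272-fold higher in G3SKM than in empty vector (212 to 360, the 95% Clopper-Pearson interval, which covers counting error only, as do all bounds in brackets below). G3SKM held the lowest Sox2 of the 3 infected groups that received it. Klf4 stood at 6.26 RPKM in empty vector, 8.55 in G3SKM, 13.9 in OSKM and 19.3 in SKM, 1.37-fold higher in G3SKM than in empty vector (1.31 to 1.43). Myc was at 16.0 RPKM in empty vector, 6.31 in G3SKM, 10.5 in OSKM and 11.9 in SKM. Myc was thus lowest in G3SKM, 2.53-fold below empty vector (2.43 to 2.63), although c-MYC had been delivered.

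Gata3, the factor that sets G3SKM apart from SKM, was at 0.0639 RPKM in empty vector, 0.571 in G3SKM, 0.0836 in OSKM and 0.0444 in SKM. It was highest in the group labelled with it, 8.94-fold above empty vector (7.80 to 10.3), but stayed under 1 RPKM and so is not among the genes compared. Per exon length in place of gene span, its log2 ratio of values + 1 was 1.91. Pou5f1, which encodes OCT4, had no reads in empty vector, 0.212 RPKM in G3SKM, 3.69 in OSKM and 0.297 in SKM, highest in the group that received it. Values per gene do not separate delivered from endogenous transcripts.

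A gene was called higher or lower in G3SKM when log2 of the ratio of RPKM + 1 over empty vector was at least 1 in size. By this rule of size 732 genes were higher, 7.11% of the 10298 compared, and 386 were lower, 3.75%. Among 7064 protein-coding genes 330 were higher (4.67%) and 301 lower (4.26%). The median log2 ratio over the whole comparison was 0.17, and 62.5% of genes lay within 0.5 of no change. Called genes were 65.5% higher ones as deposited, but 45.1% (469 higher, 572 lower) when the ratios were centred on their median, and 46.4% (466 and 538) with a trimmed mean, so the balance between directions rests on the scaling. Just inside the rule lay Ankrd23, at 0.377 RPKM in empty vector and 1.76 in G3SKM, and Tfpi2, at 1.5 and 0.247. Just outside it lay Dhcr7, at 0.553 and 2.10 RPKM.

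**Figure D1:**
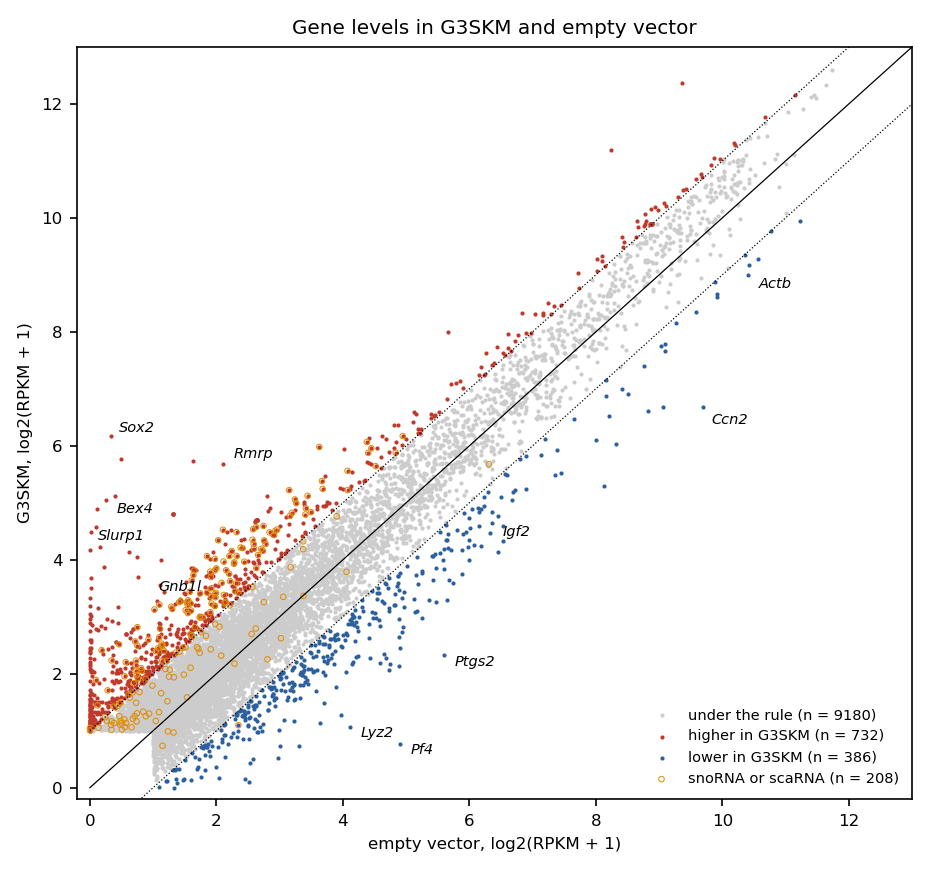
Each point is 1 of the 10298 genes compared, with log2 of RPKM + 1 in empty vector on the x axis and in G3SKM on the y axis. The solid line marks equal levels and the dotted lines the rule of size. Red points are the 732 genes called higher and blue points the 386 called lower, and orange rings mark the 208 small nucleolar and Cajal body RNA genes, which lie mostly above the upper dotted line.

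Genes of the epidermis made up 4 of the 10 largest rises among protein-coding genes at 5 RPKM or more. Krt14, the keratin of basal keratinocytes, was at 0.0656 RPKM in empty vector, 22.8 in G3SKM, 16.5 in OSKM and 33.8 in SKM. Krt16, a keratin of wounded and rapidly growing epidermis, was at 0.00940, 21.4, 13.8 and 30.6 RPKM in the same order. Both were almost without reads in empty vector and present in the 3 groups that received SOX2, KLF4 and c-MYC. G3SKM was 347-fold above empty vector for Krt14 (246 to 508) and 2279-fold for Krt16 (763 to 10824), where the width of the bounds comes from the few reads in empty vector. In such bulk RNA, more cells of a type and more RNA per cell cannot be told apart.

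Of 15 listed keratinocyte genes 7 passed the filter of 1 RPKM, and 6 of these were higher and none lower, with a median log2 ratio of 2.38 against 0.17 for all genes. Over the whole list 14 were above empty vector and 1 below, and the summed RPKM of the list was 8.40 in empty vector and 74.4 in G3SKM. A gene that passes the filter only through G3SKM has to be higher, so the counts of this list and of the other lists that were near 0 in empty vector describe the levels and add no support. Krt17, a keratin of hair follicles and injured skin, was at 0.0112 RPKM in empty vector and 4.89 in G3SKM. Krt6a, which pairs with Krt16, was at 0.00411 and 4.21 RPKM. Members that define keratinocytes did not all pass the filter. Krt5, the usual partner of Krt14, rose but stayed under it, at 0.00464 RPKM in empty vector and 0.0998 in G3SKM. Trp63, the master regulator of stratified epithelia, was at 0.000345 and 0.000993 RPKM, and Krt10 of the suprabasal layers at 0.541 and 0.570. The list thus held a few keratins past the rule beside other basal and suprabasal genes that stayed under 1 RPKM in both groups. Per exon length the log2 ratios of Krt5, Trp63 and Krt10 were 0.32, 0.023 and 0.040.

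The cornified envelope and barrier list, genes that seal the outer skin, had 12 of 18 members past the filter, 10 of them higher and none lower, with a median log2 ratio of 2.53. Slurp1, a small secreted protein of the epidermis, had no reads in empty vector, 16.9 RPKM in G3SKM, 9.79 in OSKM and 24.6 in SKM. Against a floor of 3 reads in empty vector it was at least 2333-fold higher in G3SKM. Asprv1, the retroviral-like protease that processes filaggrin, was at 0.0118 RPKM in empty vector, 10.3 in G3SKM, 3.24 in OSKM and 11.6 in SKM. G3SKM lay near SKM and above OSKM for this gene. Sbsn, the secreted protein suprabasin, was at 0.683, 15.5, 6.26 and 25 RPKM in the order empty vector, G3SKM, OSKM and SKM, and Krtdap, a protein of differentiating keratinocytes, at 0.00283, 5.70, 5.34 and 7.18. The late envelope gene Ivl, involucrin, was at 0.116 RPKM in empty vector and 0.134 in G3SKM, and Lor, loricrin, at 0.195 and 0.872.

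The sequence just before the start of Asprv1 is shown because it held the most copies of the KLF motif CACCC among the 4 higher epithelial genes searched. The stretch is the 250 bases upstream of the start at chr6:86627924-86628173 on the plus strand of GRCm38.p6, from RefSeq, and a later build than that of the deposited values. Capitals mark CACCC on either strand, so GGGTG where the motif is on the other strand.
Asprv1: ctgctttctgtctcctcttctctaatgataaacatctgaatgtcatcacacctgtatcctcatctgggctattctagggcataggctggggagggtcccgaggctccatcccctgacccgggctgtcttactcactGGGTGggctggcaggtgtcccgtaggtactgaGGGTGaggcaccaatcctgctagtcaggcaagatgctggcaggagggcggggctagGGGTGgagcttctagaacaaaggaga
CACCC is short and common. It occurred in 51.3% of 27025 promoters of this length, in 56.8% of those of protein-coding genes compared, in 62.2% of those of genes called higher and in 63.9% of those of genes called lower. The motif was thus about as frequent before genes that were lower as before genes that were higher. The GATA motif AGATAA occurred in 5.24% of promoters of the genes compared, 6.64% of those called higher and 5.73% of those called lower. For the SOX motif ACAATG these shares were 6.03%, 6.64% and 6.17%, and for the E-box CACGTG, the motif of MYC, 8.95%, 9.54% and 8.37%.

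Of 22 genes of epithelial junctions and their regulators, 7 passed the filter and 3 were higher, none lower, with a median log2 ratio of 0.84. Per exon length, where 10.2% of 14901 genes were higher and 4.87% lower, 11 passed and 7 were higher. Krt8, a keratin of simple epithelia, was at 0.0908 RPKM in empty vector, 7.91 in G3SKM, 6.18 in OSKM and 11 in SKM, 87.2-fold higher in G3SKM (69.4 to 110). Cldn3, a tight junction protein, was at 0.186, 5.98, 4.72 and 20.3 RPKM, and Cldn4, a related claudin, at 0.144, 1.85, 1.81 and 2.11. Both were above empty vector in all 3 groups with delivered factors, with SKM the highest for Cldn3. Cdh1, the epithelial cadherin, was at 0.000807 RPKM in empty vector and 0.305 in G3SKM, and Epcam at 0.00416 and 0.215. The 15 members under the filter, these 2 among them, all lay above empty vector. The epithelial splicing factor gene Esrp2 was at 0.360 and 1.43 RPKM, and the regulator Grhl2 at 0.00227 and 0.00400.

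Genes of no epidermal role were also among the largest rises. Bex4 and Bex1, small adaptor proteins of the brain-expressed X-linked family, were at 0.199 and 0.309 RPKM in empty vector and at 32.0 and 33.8 in G3SKM. They were near these levels in the other infected groups too, with Bex4 at 29.1 RPKM in SKM and 28.0 in OSKM, and Bex1 at 45.2 and 38.8. Bglap2, an osteocalcin gene, was at 0.0841 RPKM in empty vector, 28.5 in G3SKM, 22.6 in OSKM and 55.6 in SKM, and its neighbour Bglap at 0.112, 17.7, 13.6 and 31.4. Reads shared between these close copies were not examined. Other bone genes did not go with them, since Runx2 was at 0.0840 RPKM in empty vector and 0.0451 in G3SKM, Sp7 at 0.0641 and 0.0423, and Spp1, osteopontin, at 51.4 and 16.9. Phlda2, an imprinted growth restraint of the placenta, was at 0.172 RPKM in empty vector, 13.6 in G3SKM, 11.6 in OSKM and 22.8 in SKM, 79.4-fold higher in G3SKM (55.1 to 116).

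**Figure D2:**
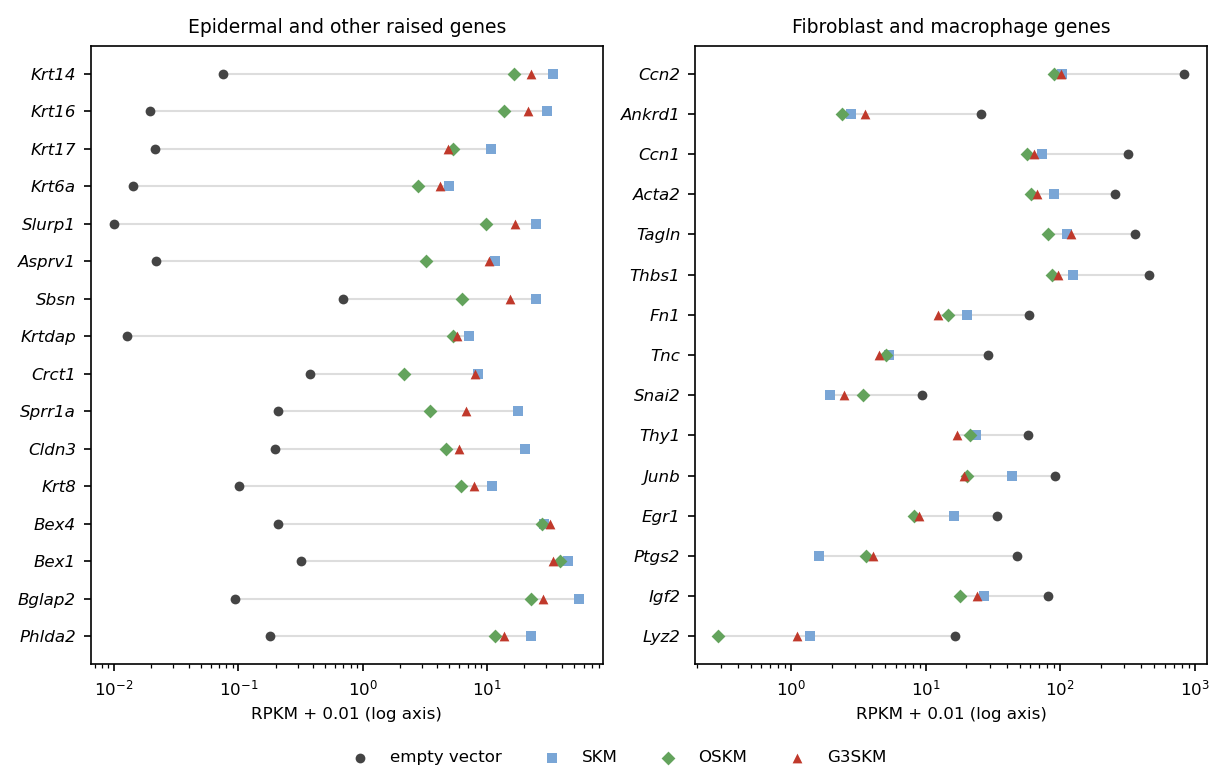
Levels of named genes in the 4 groups, each marker 1 group's RPKM + 0.01 on a log axis, with the raised genes in the left panel and the lowered ones in the right. Left, the circles of empty vector lie apart from the 3 groups with delivered factors, as for Krt14 at 0.0656 against 16.5 to 33.8 RPKM. Right, they lie above them, as for Ccn2 at 828 against 90.2 to 103 RPKM.

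Contractile and YAP target genes had the lowest median of the 19 lists that kept 5 members or more, except that macrophage markers were lower with a pseudocount of 0.1 RPKM (-3.45 against -1.77), on exon length (-2.11 against -1.76) and with a filter at 5 RPKM (-3.05 against -1.70). YAP is a coactivator that works with TEAD factors in spread, tense cells, and its targets and the smooth muscle type cytoskeleton mark activated fibroblasts. All 16 listed genes passed the filter, 14 were lower and none higher, and the median log2 ratio was -1.66. Ccn2, a matricellular growth factor and YAP target, was at 828 RPKM in empty vector, 101 in G3SKM, 90.2 in OSKM and 103 in SKM. The 3 groups with factors lay close together, and G3SKM was 8.18-fold below empty vector (8.09 to 8.28). Ankrd1, a nuclear ankyrin repeat protein, was at 25.8, 3.51, 2.37 and 2.78 RPKM, and Ccn1, a relative of Ccn2, at 319, 64.1, 56.8 and 73.4. Acta2, smooth muscle actin, was at 255, 67.5, 60.5 and 89.5 RPKM, and Tagln, transgelin, at 362, 120, 81.7 and 113. The exceptions were Lats2, a kinase that restrains YAP, at 4.85 RPKM in empty vector and 5.34 in G3SKM, and Ajuba, a LIM protein that restrains LATS kinases, at 4.9 and 3.50.

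The upstream 250 bases of 3 of these genes are printed because they held the TEAD motif CATTCC, which occurred in 10.4% of 5573 promoters of protein-coding genes compared, in 18.9% of 227 of genes called lower and in 11.2% of 241 of genes called higher. Over 27025 RefSeq promoters of this length the share was 12.6%. The stretches are from RefSeq on GRCm38.p6, all on the minus strand, at chr19:36119845-36120094 for Ankrd1, chr3:145649986-145650235 for Ccn1 and chr19:34255374-34255623 for Acta2. Capitals mark CATTCC, written GGAATG where it lies on the other strand.
Ankrd1: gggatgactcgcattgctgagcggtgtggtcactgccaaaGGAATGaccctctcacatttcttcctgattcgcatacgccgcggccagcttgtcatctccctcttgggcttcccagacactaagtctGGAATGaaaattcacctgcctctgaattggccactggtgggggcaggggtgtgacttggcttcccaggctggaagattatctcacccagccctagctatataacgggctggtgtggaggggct
Ccn1: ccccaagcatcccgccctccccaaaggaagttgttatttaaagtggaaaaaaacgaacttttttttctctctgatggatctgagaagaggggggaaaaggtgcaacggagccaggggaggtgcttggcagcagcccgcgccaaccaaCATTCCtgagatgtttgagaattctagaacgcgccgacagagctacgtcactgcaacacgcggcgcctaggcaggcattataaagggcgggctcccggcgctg
Acta2: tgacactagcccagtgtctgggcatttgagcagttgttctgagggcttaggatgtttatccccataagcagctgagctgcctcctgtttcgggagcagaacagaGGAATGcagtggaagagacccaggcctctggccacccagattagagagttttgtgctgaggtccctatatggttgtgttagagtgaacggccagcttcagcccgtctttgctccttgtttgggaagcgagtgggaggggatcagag
Ankrd1 held 2 matches, and Ccn1 and Acta2 held 1 each. How many other members of the list held the motif is not given. It was not particular to lowered genes, since the same stretch before Krt14, which was higher, held GGAATG. A match describes these letters and shows no binding. The AP-1 motif TGANTCA occurred in 3.95% of promoters of the genes compared, 7.05% of those called higher and 11% of those called lower.

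Genes of the fibroblast matrix, the collagens and glycoproteins that these cells secrete, were lower. Of 28 listed, 24 passed the filter, 16 were lower and none higher. The median log2 ratio was -1.15, and over the whole list 26 were below empty vector and 2 above. Their summed RPKM was 1584 in empty vector, 528 in G3SKM, 483 in OSKM and 849 in SKM. Tnc, the glycoprotein tenascin C, was at 28.8, 4.48, 5.06 and 5.31 RPKM in the order empty vector, G3SKM, OSKM and SKM, 6.43-fold lower in G3SKM (6.36 to 6.50). Thbs1, thrombospondin, was at 453, 96.8, 86.3 and 124 RPKM, Fn1, fibronectin, at 58.1, 12.4, 14.7 and 20.3, and Fbln2, fibulin, at 35, 7.62, 6.37 and 11.4. All 4 genes were lower in each group with factors than in empty vector. The fibrillar collagen gene Col1a1 lay just short of the rule, at 332 RPKM in empty vector, 166 in G3SKM, 143 in OSKM and 352 in SKM. It was lower in G3SKM and OSKM but not in SKM. Dcn, decorin, at 0.259 RPKM in empty vector and 0.548 in G3SKM, and Lum, lumican, at 0.359 and 0.428, were the members above empty vector.

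Mesenchymal regulators and markers followed. Of 18 listed, 13 passed the filter, 9 were lower and none higher. The median log2 ratio was -1.20, and all 18 were below empty vector. Snai1 and Snai2 encode zinc finger repressors of epithelial genes. Snai1 was at 30.3 RPKM in empty vector, 8.01 in G3SKM, 6.73 in OSKM and 16.6 in SKM, and Snai2 at 9.36, 2.48, 3.42 and 1.92. Snai1 was 3.79-fold lower in G3SKM (3.66 to 3.93) and Snai2 3.78-fold lower (3.51 to 4.07). Thy1, a surface protein of fibroblasts, was at 57.9 RPKM in empty vector and 17.0 in G3SKM, 3.41-fold lower (3.33 to 3.49), and Tgfb3, a ligand that sustains the mesenchymal state, at 10.7 and 3.13. Twist1, a helix-loop-helix regulator, was at 14.5 and 10.0 RPKM and S100a4 at 87.7 and 71.8, both short of the rule. The defining fibroblast markers Vim and Col1a2 were lower by the rule too, Vim at 342 RPKM in empty vector and 127 in G3SKM, and Col1a2 at 95.4 and 43.9.

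Immediate early genes, the factors that serum and stress switch on within minutes, were lower as well. All 16 listed passed the filter, 13 were lower and none higher, and the median log2 ratio was -1.49. Egr3 was at 7.01 RPKM in empty vector, 0.661 in G3SKM, 0.345 in OSKM and 0.907 in SKM, and Egr2 at 4.94, 0.411, 0.257 and 0.557. Junb, an AP-1 subunit, was at 91.4, 19.2, 20.3 and 44.0 RPKM, 4.76-fold lower in G3SKM (4.65 to 4.88). Ier3, a survival factor, was at 50.1, 11.5, 8.31 and 14.6 RPKM. In each of these 4 genes SKM lay above OSKM and G3SKM. The members short of the rule were Fos, at 2.60 RPKM in empty vector and 1.37 in G3SKM, Atf3, at 1.42 and 0.425, and Jund, at 33.5 and 17.9.

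Of 22 secreted signal and inflammatory genes, 17 passed the filter, 10 were lower and none higher, with a median log2 ratio of -1.62. Ptgs2, the inducible cyclooxygenase of prostaglandin synthesis, was at 47.4 RPKM in empty vector, 4.02 in G3SKM, 3.61 in OSKM and 1.59 in SKM, 11.8-fold lower in G3SKM (11.4 to 12.2). Igfbp5, a binding protein of insulin-like growth factors, was at 8.88, 0.655, 1.33 and 0.611 RPKM, Hbegf, a ligand of the EGF receptor, at 11.5, 1.21, 1.00 and 0.847, and Plau, the urokinase, at 23.0, 3.56, 2.73 and 2.30. Of the chemokine and cytokine genes, Ccl7, Cxcl1 and Il6 were nearer to empty vector in G3SKM than in OSKM and SKM, and Cxcl5 lay above it. Ccl7 was at 58.0 RPKM in empty vector, 46.3 in G3SKM, 15.9 in OSKM and 25.5 in SKM, Cxcl1 at 17.9, 14.9, 3.75 and 8.87, Il6 at 1.17, 1.09, 0.328 and 0.383, and Cxcl5 at 18.7, 27.2, 8.13 and 18.2. G3SKM was the highest of the 3 groups with factors for all 4 of them, and for Ccl2, at 93.5, 44.6, 15.9 and 34.8 RPKM, which was lower by the rule. Other large falls were those of Htr1b, a serotonin receptor, from 28.6 to 3.41 RPKM, and Chst2, a sulfotransferase, from 14.6 to 1.43.

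Macrophage markers were present in the empty vector culture and lower in G3SKM, to degrees that varied by gene. All 14 listed were below empty vector, and of 9 past the filter 8 were lower, with a median log2 ratio of -1.47. Pf4, a chemokine of platelets and tissue macrophages, was at 28.9 RPKM in empty vector, 0.708 in G3SKM, 0.368 in OSKM and 1.25 in SKM, 40.9-fold lower in G3SKM (32.2 to 52.9). Lyz2, the lysozyme of macrophages, was at 16.4, 1.10, 0.276 and 1.37 RPKM, and the complement genes C1qa and C1qc fell from 4.48 and 3.11 to 0.113 and 0.124. Cd68, a lysosomal protein, was at 5.05 RPKM in empty vector and 1.61 in G3SKM, and Cd14, a receptor for bacterial lipopolysaccharide, at 4.68 and 1.15, so these kept a larger part of their level. Summed RPKM of the list was 69.2 in empty vector and 3.74 to 7.45 in the 3 groups with factors, and no member was at 0. The defining receptor genes were under the filter in both groups, on values that divide by the whole gene span. Csf1r was at 0.669 RPKM in empty vector and 0.372 in G3SKM, and Adgre1 at 0.0381 and 0.00103. Per exon length all 14 listed markers passed the filter and 13 were lower, against 4.87% of all genes on that scale. A marker that passes only through empty vector has to be lower, so the counts of this list describe the levels and add no support. Macrophages themselves express some of the secreted and immediate early genes above, and their part in those results was not tested.

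**Figure D3:**
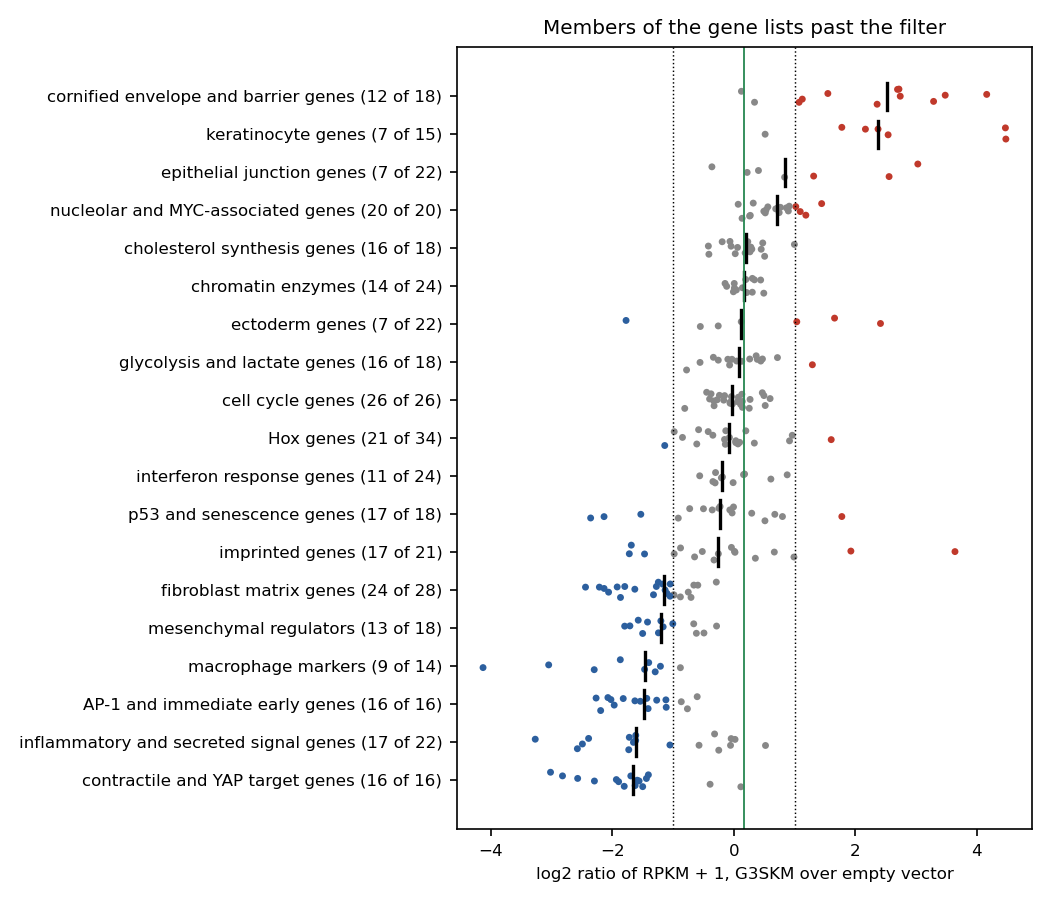
Each point is the log2 ratio of RPKM + 1, G3SKM over empty vector, of 1 list member past the filter, for the 19 lists that kept 5 or more (numbers in brackets: past the filter, of listed). Black bars are list medians, from -1.66 for contractile and YAP target genes to 2.53 for cornified envelope genes, the green line is the median of all genes, 0.17, and dotted lines mark the rule of size.

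Genes tied to MYC and the nucleolus, where ribosomes are built, were moderately higher. All 20 listed were above empty vector, 4 were higher by the rule and none lower, with a median log2 ratio of 0.71 against 0.93 for SKM and 0.76 for OSKM over the same empty vector. Nop56, a core protein of C/D small nucleolar particles, was at 24.6 RPKM in empty vector, 68.7 in G3SKM, 51.6 in OSKM and 53 in SKM. It was highest in G3SKM, 2.80-fold above empty vector (2.74 to 2.85). Ppan, a ribosome assembly factor, was at 10.5, 25.1, 20.6 and 35 RPKM, and Nop16 at 6.28, 14.5, 14.2 and 13.2. Srm, spermidine synthase and a MYC target, was at 25.5 RPKM in empty vector and 48.4 in G3SKM, short of the rule.

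Cell cycle genes showed no call in either direction. All 26 listed passed the filter and their median log2 ratio was -0.03. Mki67, a marker of dividing cells, was at 6.53 RPKM in empty vector and 6.32 in G3SKM, Pcna, the replication clamp, at 23.2 and 33.2, and Ccnd2 at 26.9 and 14.9. Cholesterol synthesis genes (16 of 18 past the filter), chromatin enzymes (14 of 24) and interferon response genes (11 of 24) likewise had no member called. The interferon list differed by group, with a median log2 ratio over empty vector of -0.19 in G3SKM, 0.02 in SKM and 1.13 in OSKM. Isg15, a ubiquitin-like protein induced by interferon, was at 19.5 RPKM in empty vector, 12.9 in G3SKM, 45.0 in OSKM and 13.3 in SKM. It was raised in OSKM and not in G3SKM, although these comparisons share the empty vector library and have no replicates.

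Of glycolysis and lactate genes 16 of 18 passed the filter and 1 was higher, near the share of 7.11% over all genes. That gene was Slc16a1, a monocarboxylate transporter, at 1.59 RPKM in empty vector and 5.36 in G3SKM. The median log2 ratio of the list was 0.09 in G3SKM, under that of all genes, against 0.63 in SKM and 0.43 in OSKM, and it turned negative under 4 of the alternatives. Of 18 genes of the p53 response and senescence 17 passed. Of these 1 was higher, near the share over all genes, and 3 were lower, against 3.75% of all genes. The 3 were Plk2, a stress kinase, at 49.2 RPKM in empty vector and 8.78 in G3SKM, and the growth arrest genes Gadd45b, at 29.95 and 6.03, and Gadd45a, at 11.1 and 3.17. Cdkn1a, the cell cycle inhibitor p21, was at 23.3 and 23.2 RPKM. Perp, a p53 target and a desmosome component of epidermis, was the gene that was higher, at 1.29 and 6.86 RPKM.

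Genes that mark pluripotent cells stayed low in G3SKM. Of 30 listed 3 passed the filter, of which Zfp296, a zinc finger gene of stem cells, was higher, at 0.222 RPKM in empty vector, 1.66 in G3SKM, 1.79 in OSKM and 2.80 in SKM. Klf2, a relative of Klf4, was lower, at 6.64 RPKM in empty vector and 1.69 in G3SKM. Nanog, a core pluripotency factor, was at 0.0340 RPKM in empty vector, 0.131 in G3SKM, 0.137 in OSKM and 0.0906 in SKM. The early genes L1td1, at 2.17 RPKM, Fgf4, at 1.15, and Nr0b1, at 1.10, stood out in OSKM, with 0.186, 0.0409 and 0.00471 in G3SKM. These 3 were named after their values were seen.

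Lineage genes were mostly under 1 RPKM. Of 20 trophoblast genes 3 passed the filter and 2 were higher. Hand1, a helix-loop-helix factor of trophoblast giant cells and mesoderm, was at 0.0131 RPKM in empty vector, 3.17 in G3SKM, 4.25 in OSKM and 5.37 in SKM, and Esx1, a homeobox gene of placenta, was without reads in empty vector and at 1.61 in G3SKM, 2.99 in OSKM and 2.87 in SKM. Both were lowest in G3SKM among the groups with factors. Gata2, a relative of Gata3, was at 0.451 RPKM in empty vector and 0.427 in G3SKM, Eomes, a T-box factor, at 0.00909 and 0.0398, and Tfap2c, a trophoblast regulator, at 0.000996 and 0.0524. Of 21 mesendoderm genes 3 passed and Hand1, which is on both lists, was higher. Gata4, at 0.00235 RPKM in empty vector and 0.00866 in G3SKM, Gata6, at 0.247 and 0.143, and Sox17, at 0 in both, remained under the filter.

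Of 22 ectoderm genes 7 passed the filter, 3 were higher and 1 was lower. Sox3, a close relative of Sox2, had no reads in empty vector, 4.34 RPKM in G3SKM, 8.14 in OSKM and 13.2 in SKM. Its order over the groups was that of Sox2, and reads shared between the pair were not examined. Sox21 was at 0.00711 RPKM in empty vector and 2.18 in G3SKM. Nes, nestin, was lower, at 41.9 and 11.5 RPKM. Dlx3, a homeobox gene of ectoderm and epidermis, was at 0.0173 RPKM in empty vector, 0.0813 in G3SKM, 0.118 in OSKM and 0.465 in SKM, and Lhx5 at 0.00188, 0.00206, 0.0182 and 0.0387.

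Of 34 Hox genes, which keep the body position of fibroblasts, 21 passed the filter and 1 was called in each direction, near the shares over all genes. Hoxd13, of the limb ends, was higher, at 0.334 RPKM in empty vector and 3.05 in G3SKM, and Hoxb2 lower, at 6.37 and 2.35. The members went both ways around a median log2 ratio of -0.07, which was -0.91 with a filter at 5 RPKM and turned its sign under 2 alternatives. On exon length 28 passed, 4 were higher and 2 lower. Of 21 imprinted genes 17 passed, 2 were higher and 3 lower, against 7.11% and 3.75% of all genes. Besides Phlda2, Nnat, a membrane protein of developing brain, was higher, at 3.68 RPKM in empty vector, 16.8 in G3SKM, 25.8 in OSKM and 16.1 in SKM. H19 and Igf2, neighbours under a shared imprinting control, were both lower, at 294 and 81.2 RPKM in empty vector and 90.4 and 23.9 in G3SKM, and so was Dlk1, a Notch-related surface protein, at 5.24 and 1.25.

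Of the markers of other cell types most were under the filter in both groups. None of 8 endothelial, 7 Schwann cell and melanocyte or 8 T cell markers passed the filter. Of 9 erythroid markers Hbb-y, an embryonic globin, passed, with no reads in empty vector and 2.08 RPKM in G3SKM, while the other globin genes were at 0.107 to 0.146 in G3SKM. Of 9 skeletal muscle markers 3 passed and Acta1, an actin of skeletal muscle, was lower, at 13.4 and 5.18 RPKM, while Des, desmin, was at 5.33 and 2.69, short of the rule. Of 6 adipocyte markers 3 passed and none was called.

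The class of genes with the largest share of calls was the small nucleolar RNAs, guides that direct chemical modification of ribosomal RNA, with their Cajal body relatives. Of 208 such genes compared 136 were higher (65.4%) and 1 was lower, against 7.11% and 3.75% of all genes. Their median RPKM was 2.20 in empty vector, 6.98 in G3SKM, 2.59 in OSKM and 2.76 in SKM, and 176 of the 208 had their highest value in G3SKM, against 2642 of all 10298 genes. The medians of SKM and OSKM thus lay near that of empty vector. Among the 152 that reached 1 RPKM in empty vector, which did not pass through G3SKM, 109 were higher (71.7%) and 1 lower, with a median log2 ratio of 1.40, against 5.03% and 0.093 for the 8984 genes chosen in the same way.

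Among the genes named for a family, both families were higher in G3SKM, but they differed in SKM. Of 56 genes with C/D box names 43 were higher, and of 30 with H/ACA box names 24. The rest of the 208 carried neither name and were not assigned to a family. Median RPKM of the C/D names was 2.37 in empty vector, 8.04 in G3SKM, 2.75 in OSKM and 2.47 in SKM. For the H/ACA names it was 2.39, 7.90, 2.87 and 4.98, so these lay above empty vector in SKM as well. C/D box RNAs guide methylation and H/ACA box RNAs guide pseudouridine formation, and 1 or 2 of each are shown with the boxes that name them. The sequences are GENCODE M21 transcripts on GRCm38, with capitals on box C (TGATGA) and box D (CTGA) in the C/D genes and on the ACA box in the H/ACA gene. Snord96a lies at chr11:48802032-48802112, Snord37 at chr10:81178950-81179013 and Snora61 at chr4:132310240-132310369, all on the plus strand.
Snord96a: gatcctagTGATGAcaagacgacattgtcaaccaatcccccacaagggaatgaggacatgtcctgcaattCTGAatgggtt
Snord37: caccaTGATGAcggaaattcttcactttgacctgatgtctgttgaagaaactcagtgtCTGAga
Snora61: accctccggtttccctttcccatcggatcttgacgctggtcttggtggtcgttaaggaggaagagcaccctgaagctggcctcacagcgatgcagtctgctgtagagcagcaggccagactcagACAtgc
Snord96a was at 11.4 RPKM in empty vector, 62.2 in G3SKM, 21.4 in OSKM and 21.5 in SKM, 5.47-fold higher in G3SKM (4.41 to 6.85). Snord37 was at 1.14, 8.28, 1.91 and 5.87 RPKM, and Snora61 at 7.88, 36.3, 14.6 and 29.5. G3SKM was the highest group for all 3, nearest to SKM for Snora61.

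Other short RNAs with known cell-wide roles went the same way. Rmrp, the RNA of a ribonuclease that processes ribosomal RNA, was at 3.30 RPKM in empty vector, 50.1 in G3SKM, 14.9 in OSKM and 14.3 in SKM, 15.2-fold higher in G3SKM (12.4 to 18.8). Rn7sk, which holds back a transcription elongation factor, was at 5.97, 33.8, 15.2 and 11.3 RPKM, and Rprl3, related to the RNA of ribonuclease P, at 0.529, 16.6, 3.29 and 3.84. The Y RNAs did not follow, with Rny1 at 3.40 RPKM in empty vector and 3.10 in G3SKM and Rny3 at 7.04 and 2.92. Of 70 microRNA genes 12 were higher (17.1%) and 2 lower, a median log2 ratio of 0.11. Of 395 long non-coding RNA genes 30 were higher (7.59%) and 20 lower. Over all genes compared 7.11% were higher and 3.75% lower, so the share of long non-coding RNA genes called higher was near that of all genes. These short RNAs were named after their values were seen. Per the labels' protocols the cDNA was sheared to fragments longer than the RNAs printed above, and its part in these values was not tested.

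Most small nucleolar RNAs lie in introns of host genes, and some hosts were higher too. Of 87 genes past the filter with 1 or more of the 208 small RNAs inside their span on the same strand, 19 were higher (21.8%), none was lower and 68 were under the rule, with a median log2 ratio of 0.41. Without the reads of the small RNAs 16 were higher. Nop58, with 4 small RNAs inside, had a log2 ratio of 0.07 and Ncl, with 3, one of 0.26. Gas5, a host of many C/D RNAs, was at 29.7 RPKM in empty vector, 63.7 in G3SKM, 39.6 in OSKM and 36.8 in SKM, and Zfas1 at 12.2, 43.4, 21.7 and 24.7. Both were highest in G3SKM. Since the deposited values count over the whole span, host values include the small RNAs. Their reads were 8.63% of those of Gas5 in G3SKM and 6.76% in empty vector, and without them its log2 ratio was 1.05 in place of 1.08. For Snhg12 the share was 17.8% in G3SKM and 10.2% in empty vector, and the log2 ratio was 1.16 in place of 1.3. For Taf1d the log2 ratio was 1.10 in place of 1.15, and for Zfas1, Nop56, Eif4a2 and Snhg20 removal of these reads moved it by less than for Gas5. All 7 of these raised hosts, which were named after their values were seen, passed the rule with and without the reads of the small RNAs.

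**Figure D4:**
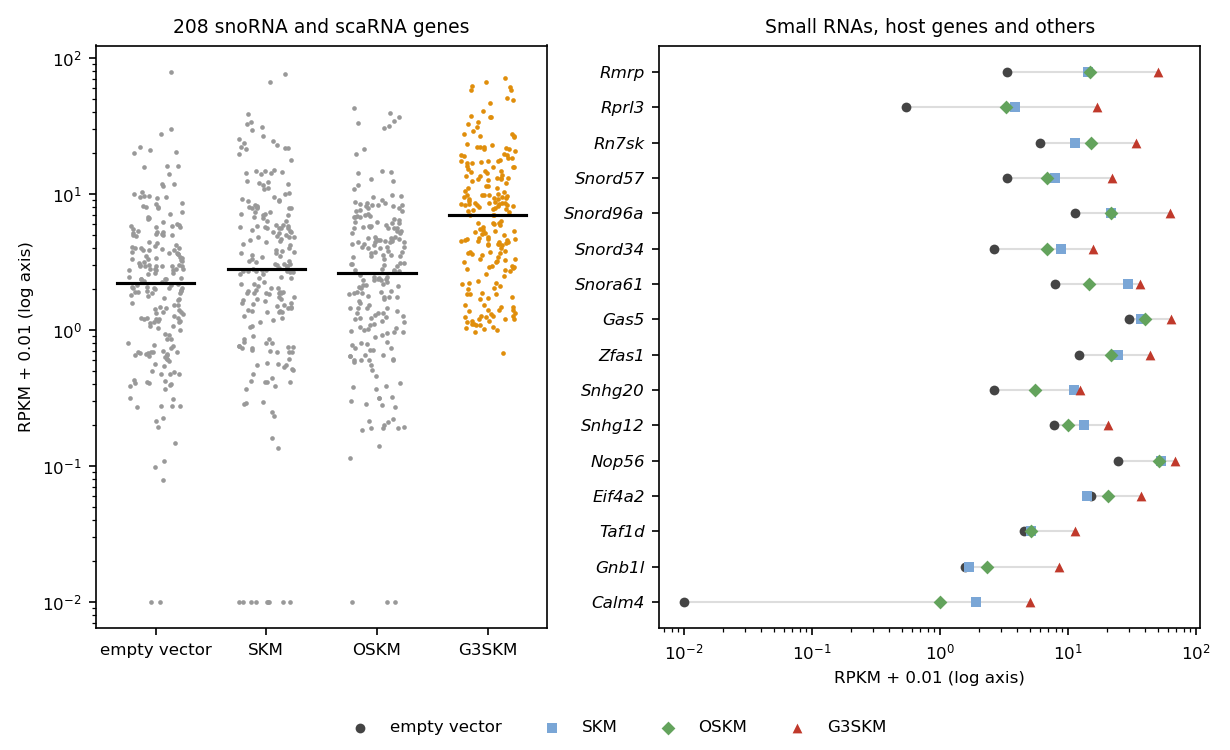
Left, RPKM + 0.01 on a log axis of the 208 small nucleolar and Cajal body RNA genes in each group, with black bars at the medians of 2.20 RPKM in empty vector, 6.98 in G3SKM, 2.59 in OSKM and 2.76 in SKM. Right, the 4 groups for 7 short RNAs, 7 host genes, Gnb1l and Calm4 on the same scale, where the red triangles of G3SKM lie to the right of the other groups for all 16.

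Some protein-coding genes were called in G3SKM and also stood apart from the mean of SKM and OSKM. Their choice used the G3SKM values, so their levels are a description. The highest was Gnb1l, a WD-repeat protein, at 1.54 RPKM in empty vector, 8.40 in G3SKM, 2.31 in OSKM and 1.67 in SKM. It was near empty vector in SKM and OSKM and 5.45-fold above it in G3SKM (5.35 to 5.56). Calm4, a calmodulin-like protein of skin, was without reads in empty vector and at 5.02 RPKM in G3SKM, 0.981 in OSKM and 1.90 in SKM, and Pmch, the precursor of melanin-concentrating hormone, at 2.56, 12.2, 5.86 and 4.9 in the order used above. Cox20, an assembly factor of cytochrome oxidase, was at 4.70, 10.6, 3.98 and 4.46 RPKM, and Eif4a2, an RNA helicase of translation, at 14.9, 36.7, 20.3 and 14.1. Eif4a2 holds 5 small nucleolar RNA genes, whose reads were 2.15% of its own in G3SKM, and Gnb1l and Cox20 hold none. Cox20 lay at a log2 ratio of 1.02 and fell under the rule when the ratios were centred on their median (0.85).

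At the other end were genes called against empty vector whose G3SKM value lay below the mean of SKM and OSKM. Cnfn, cornifelin of the skin barrier, was without reads in empty vector and at 4.13 RPKM in G3SKM, 12.5 in OSKM and 10.7 in SKM. Epop, a partner of Polycomb complexes, was at 1.26, 9.82, 16.9 and 18.7 RPKM in the order empty vector, G3SKM, OSKM and SKM, and Zfp703, a transcriptional repressor, at 9.08, 3.07, 4.53 and 7.39. Sox2, Sox3 and Cldn3, given above, were the others. Zfp703 was lower in G3SKM than in empty vector and in both other groups, whereas the rest were above empty vector.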

How the data were processed

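RNA-seq of 4 groups of mouse embryonic fibroblasts was used. TRIzol extraction and DNase treatment are given per the labels' protocols, and cDNA was amplified, sheared and made into libraries. Alignment with TopHat 1.3.0 to build mm9 is named per the submitters' processing notes. The counter, the annotation and the way of combining replicates were not given in the sources used here. The authors deposited RPKM per gene, per the file headers, beside their own log2 ratios between columns. These log2 values differed from the columns by at most 0.0017 and were not used further. The G3SKM and empty vector columns come from 2 tables, whose shared SKM column was identical.

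A value of 0.001, or absence from a table, was taken as 0. RPKM times gene span (GENCODE M21, which holds 91.0% of the listed genes) fell within 0.05 of whole reads for 74.8% to 76.8% of genes at 1 to 1000 reads, against 10% by chance. This gave depth, reads, the Clopper-Pearson intervals (95%) and the floor of 3 reads, which cover counting error of reads only. PCR reads are not independent molecules, so the bounds can be too narrow even for that. Reads of Cnfn, Sox3, Lyz2, Snai2, Klk7 and Cldn4 were off whole numbers, so their bounds are approximate. p-values need replicates, and none is given.

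The comparison and the 30 gene lists (511 of 520 genes matched) were chosen with earlier results of these data known. Among the matches, Cer1 of the mesendoderm list was matched by an older name to Acer1, a different gene, which stayed under the filter. The text names the delivered factors, the 10 protein-coding genes that rose most and the 10 that fell most with 5 RPKM or more in either group, up to 4 called members of each list in each direction, Dlx3, Lhx5, Nanog, Gata4, Gata6 and Sox17, and the 6 called genes highest and lowest against the mean of SKM and OSKM. Predicted genes were left unnamed, and a few genes that the rule picks are not reported here. List members named beside these without a call were chosen after their values were seen. Promoters were the 250 bases before the start that RefSeq lists for each gene, searched on both strands. Alternatives were 0.1 and 5 RPKM as the pseudocount, a filter at 5 RPKM or none, centring, a trimmed mean, exon length, protein-coding genes alone, at least 100 reads, removal of the GC trend in 20 bins, genes in both tables and a rule of 2. Genes at 1 RPKM or more in empty vector were added after the data were examined. The procedure was run on simulated reads with planted changes and counting noise alone, which hold no spread between replicates and lend no support to the results. Python 3.11.15, pandas 2.3.3, numpy 2.4.6, SciPy 1.17.1 and matplotlib 3.10.9 were used.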

Additional observations from a re-analysis of the deposited data

How the results depend on the processing

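With 1 value per group, the counts of called genes were recomputed under 13 alternatives, the medians of the 19 lists that kept 5 members or more under up to 12, and 51 named genes under up to 11. The counts of genes called higher (732) and lower (386) became 1413 and 678 with a pseudocount of 0.1 RPKM, 266 and 155 with 5 RPKM, 1526 and 725 on exon length, and 114 and 44 under a rule of 2. The count of higher genes was 452 with a filter at 5 RPKM, 469 when centred on the median, 466 with a trimmed mean, 330 for protein-coding genes alone and 452 for genes at 1 RPKM or more in empty vector. Of 136 small nucleolar and Cajal body RNA genes called higher, the count was 62 with the pseudocount of 5 RPKM, 83 with at least 100 reads and 15 under the rule of 2. With the pseudocount of 5 RPKM these list medians fell short of 1 in size: keratinocyte 0.91, cornified envelope 0.98, fibroblast matrix -0.88, mesenchymal -0.59, AP-1 -0.95, inflammatory and secreted -0.79, macrophage -0.65. Without a filter those of keratinocyte (0.25), mesenchymal (-0.83) and inflammatory genes (-0.61) did. The epithelial junction median passed 1 with a pseudocount of 0.1 RPKM (1.73) and on exon length (1.27). Signs turned for glycolysis with a filter at 5 RPKM (-0.0503), centred (-0.0822), with a trimmed mean (-0.0825) and for genes at 1 RPKM or more in empty vector (-0.0307). They turned for ectoderm genes when centred (-0.0487), with a trimmed mean (-0.0494) and for genes at 1 RPKM or more in empty vector (-0.405), for Hox genes without a filter (0.0110) and on exon length (0.0351), and for chromatin enzymes when centred (-0.00104). For all these the cause was not tested. Of the single-gene ratios 549 kept direction and side of the rule and 10 kept direction only. No paired analysis was possible because each group is 1 column with its 2 replicates combined, which also leaves no replicate to omit.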

Other observations

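Gene families picked by the start of their symbols, after the values were seen, showed further patterns. Of 24 genes of Ly6 and related surface or secreted proteins, 8 were compared, and 6 were higher and none lower in G3SKM. The shares over all protein-coding genes compared were 4.67% and 4.26%. Slurp1, Ly6g6e, Lypd2 and Ly6i were under 1 RPKM in empty vector and passed the filter only through G3SKM, so they had to be higher. The count of this family thus describes levels and adds no support. Ly6a, the stem cell antigen Sca-1, was at 15.3 RPKM in empty vector, 60.3 in G3SKM, 43.8 in OSKM and 19.9 in SKM, and Ly6c1 at 1.41, 5.52, 5.36 and 2.88. G3SKM was the highest group for both. Lypd2 was at 0.143 RPKM in empty vector and 4.31 in G3SKM. Among integrins, the receptors for matrix, Itga5, which binds fibronectin, was at 40.3 and 8.85 RPKM and Itgb1, its partner, at 30.4 and 9.85, both lower. Itgb4, the integrin of epidermal hemidesmosomes, was higher, at 0.0358 and 1.27 RPKM. Of 8 S100 genes compared, S100a6, at 968 RPKM in empty vector and 407 in G3SKM, and S100a11, at 71.7 and 28.8, were lower, and the epithelial S100a14 was higher, at 0.00910 and 4.48.

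Genes of the ribosome and of mitochondria lay above the median of all genes without many calls. Over all protein-coding genes compared 4.67% were higher and 4.26% lower. Of 79 cytoplasmic ribosomal protein genes 7 were higher and none lower, with a median log2 ratio of 0.52, against 0.42 in SKM and 0.34 in OSKM. The median was 0.57 for 72 mitochondrial ribosomal protein genes, with 2 higher, against 0.51 in SKM and 0.57 in OSKM. For 71 respiratory chain and ATP synthase genes picked by symbol, with 6 higher, it was 0.47, against 0.42 in SKM and 0.30 in OSKM. The shift was thus present in all 3 groups with factors. Of 49 histone genes picked by symbol, 10 were higher. Their median log2 ratio was 0.13 in G3SKM, against 0.50 in SKM and 0.71 in OSKM over the same empty vector. The symbols can take in histone variants not tied to replication beside the replication-dependent genes. Reads shared among histone genes and among ribosomal protein genes and their pseudogenes were not examined.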
